A study of Homo sapiens with 6 samples.

Results

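The genes described here are 8 members of the caspase cell death machinery: APAF1, CYCS, CASP9, CASP6, CASP2, CASP4, CASP1 and XIAP. They were chosen by gene symbol from the probe table of the array, as caspases outside the death receptor complex together with APAF1, cytochrome c and their inhibitor. The rule itself uses no measured value, but the members were chosen with earlier results of these data known. CASP5, a further caspase of this kind with a tested probe set, is not among the 8 genes. Each of the 8 was measured by 1 probe set, and together they are 8 of the 7713 genes that a probe set of the array names alone. Of the 8 genes, 7 were bright enough to be among the 6559 probe sets tested, and CASP1 was not. Transcripts of the established human non-small cell lung cancer line A549 were read on 3 arrays of cells given 50 µM cisplatin for 1 hour and 3 control arrays of cells given medium without drug, both collected after 10 further hours in drug-free medium. The samples came from 3 independent experiments per the series description. No genetic change is stated for either group, and all cultures were of this one line.

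In the mitochondrial route to apoptosis, cytochrome c leaves the mitochondrion and binds APAF1, which assembles into a wheel called the apoptosome and recruits the initiator caspase CASP9. Active CASP9 cleaves the executioner caspases, which then cut structural and repair proteins, and XIAP blocks both steps by binding the caspases themselves. Much of this control acts on the proteins, which exist as inactive precursors, so a transcript level is a measure of supply and not of caspase activity. CASP6 is the executioner among the 8 genes. CASP1 and CASP4 belong to the inflammatory caspases, which act in inflammasomes and in pyroptosis, and CASP2 is an initiator of its own complex.

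None of the 7 tested genes changed by the limma test with Benjamini-Hochberg adjustment over all tested probe sets at 0.05. At that threshold 19 of the 6559 tested probe sets passed, or 0.290%, so a count of 0 among 7 is near this background. At an unadjusted p under 0.05, 2 of the 7 genes passed, APAF1 and CASP6, both higher after cisplatin, and 3.40% of all tested probe sets were higher by this measure. The same 2 genes had all 3 cisplatin values above all 3 control values, as did 7.42% of all tested probe sets. The log2 fold of cisplatin over control was above 0 for 6 of the 7 genes, of which CYCS turned negative under each other scaling between arrays tried, against 60.5% of all tested probe sets. Its median was 0.21 over the 7 genes and 0.04 over all tested probe sets.

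The regions around the annotated starts of APAF1 and CASP6 are shown because these were the 2 genes whose cisplatin and control arrays did not overlap. Each is a window of RefSeq on GRCh38.p14, from 250 bases before the start to 50 after it, read 5′ to 3′ along the gene. The APAF1 window lies at chr12:98645040-98645339 on the plus strand and the CASP6 window at chr4:109703396-109703695 on the minus strand. Capitals mark matches, on either strand, to the GC box GGGCGG, the CCAAT box CCAAT, the TATA box TATAAA or the p53 half-site. The p53 half-site was searched as RRRCWWGYYY, where R is A or G, W is A or T and Y is C or T.
APAF1: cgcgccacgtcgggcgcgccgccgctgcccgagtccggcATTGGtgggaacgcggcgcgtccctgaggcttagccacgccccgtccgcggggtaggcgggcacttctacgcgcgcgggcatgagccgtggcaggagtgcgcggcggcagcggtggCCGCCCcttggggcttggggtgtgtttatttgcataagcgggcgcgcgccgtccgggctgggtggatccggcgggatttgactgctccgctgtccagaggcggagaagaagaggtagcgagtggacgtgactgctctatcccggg
CASP6: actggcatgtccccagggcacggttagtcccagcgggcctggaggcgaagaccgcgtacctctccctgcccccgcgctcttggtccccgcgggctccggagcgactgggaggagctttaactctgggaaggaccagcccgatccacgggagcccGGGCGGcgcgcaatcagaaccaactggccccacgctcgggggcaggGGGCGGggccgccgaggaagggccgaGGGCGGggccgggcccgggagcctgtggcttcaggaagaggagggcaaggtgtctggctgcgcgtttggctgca
The APAF1 window held 1 GC box and 1 CCAAT box, and the CASP6 window held 3 GC boxes, with no overlap among these matches. Over 35116 windows of this length, 45.0% held the GC box, 34.6% the CCAAT box, 11.5% the TATA box and 6.63% the p53 half-site. Of the members, 7 had windows in the RefSeq table, 11 in all for their alternative starts. Of these 11 windows, 8 held a GC box, 5 a CCAAT box, 0 the TATA box and 1, at a CASP9 start, the p53 half-site. The XIAP windows overlap, so the same GC box there was counted more than once. The share of G and C bases was 71.3% in the APAF1 window and 72.0% in the CASP6 window, against a median of 58.7% over all windows. CASP4 had the lowest share among the members at 39.7%. These matches describe letters in the windows, and binding was not measured.

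APAF1, the scaffold of the apoptosome, had the largest log2 fold of the 7 tested genes. Its intensities were 183, 178 and 156 on cisplatin 1 to 3, against 63.1, 154 and 112 on control 1 to 3. The 3 cisplatin arrays lay close together, while control 1 was far below the others and control 2 nearly reached the lowest cisplatin array. The means were 172 ± 14.3 with cisplatin and 109.8 ± 45.5 in controls (SD, n = 3 each). The log2 fold in limma was 0.67 (SE 0.25, 95% interval 0.10 to 1.23), or 1.59-fold, with an adjusted p of 0.797. Over 19 alternative settings that adjusted p was 0.402 or higher. Without control 1 the log2 fold of APAF1 was 0.36, and without control 2 it was 0.93, so its size depended on single control arrays while its direction did not. In bulk RNA, fewer cells carrying a transcript and less of it per cell cannot be told apart.

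**Figure D1:**
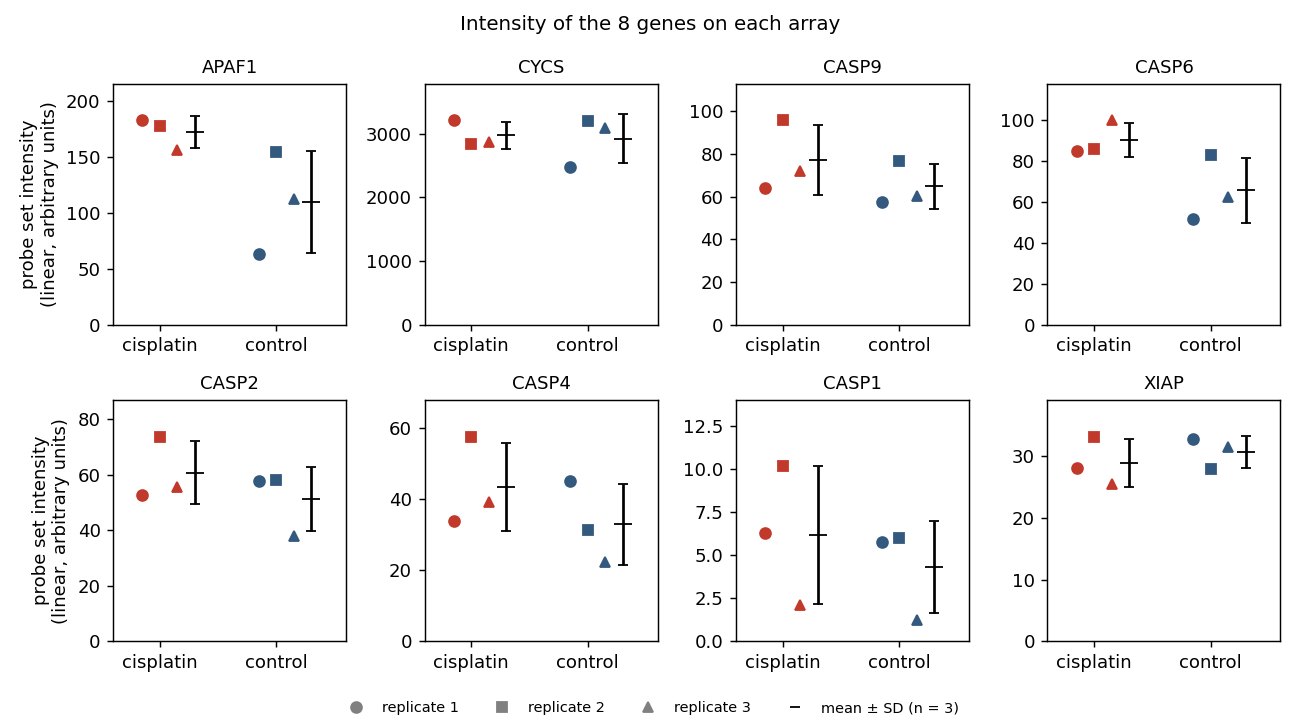
Probe set intensity on a linear scale (arbitrary units, axis from 0) for the 8 genes, with 3 cisplatin arrays on the left and 3 control arrays on the right of each panel; the symbol shape gives the replicate number and the bar the mean ± SD. The groups are apart for APAF1 and CASP6, where cisplatin arrays start at 156 and 84.6 and controls end at 154 and 82.7, and overlap for the other 6 genes.

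CYCS encodes cytochrome c, which carries electrons in the respiratory chain and triggers APAF1 once released. Its intensities were 3212, 2844 and 2869.6 on the cisplatin arrays, against 2479, 3198 and 3099 on the control arrays. The groups overlapped, and the lowest of the 6 values was again that of control 1. The log2 fold was 0.03 (SE 0.10, 95% interval -0.19 to 0.25), which as a fold spans 0.875 to 1.19, with an adjusted p of 0.999 in limma. Its sign turned with the scaling between arrays, at -0.041 with arrays centred on the median.

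CASP9, the initiator that APAF1 recruits, had intensities of 63.9, 95.8 and 72.0 after cisplatin, against 57.5, 76.7 and 60.3 in controls. Cisplatin 2 stood above the other arrays, and the groups overlapped. The log2 fold was 0.21 (SE 0.18, 95% interval -0.19 to 0.61, adjusted p = 0.999 in limma). Without cisplatin 2 it was 0.064, and without both cisplatin 2 and control 1 it was -0.0043.

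CASP6, an executioner that cleaves nuclear lamins, had intensities of 84.6, 85.8 and 99.6 after cisplatin, against 51.7, 82.7 and 62.1 in controls. All cisplatin arrays were above all control arrays, by a narrow margin over control 2. The means were 90.0 ± 8.34 with cisplatin and 65.5 ± 15.8 in controls (SD, n = 3 each). The log2 fold in limma was 0.41 (SE 0.17, 95% interval 0.02 to 0.81), or 1.33-fold, with an adjusted p of 0.920. It lay between 0.28 without control 1 and 0.57 without control 2.

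**Figure D2:**
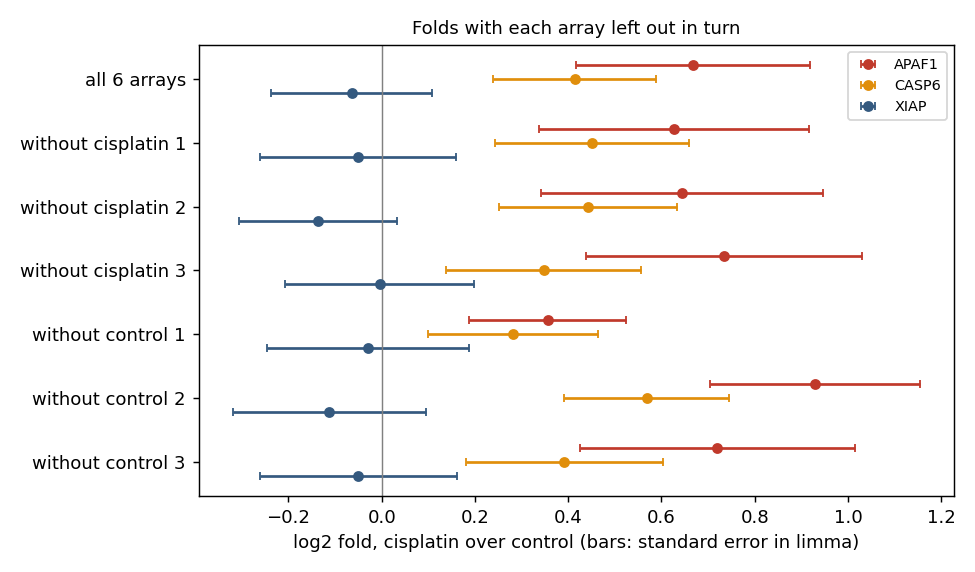
Log2 fold of cisplatin over control with its standard error in limma (x axis) for APAF1, CASP6 and XIAP, with all 6 arrays and with each array left out in turn (rows). APAF1 runs from 0.36 to 0.93 and CASP6 from 0.28 to 0.57, while XIAP stays between -0.14 and -0.0041.

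XIAP, which binds and inhibits CASP9, was the 1 tested gene with a log2 fold below 0. Its intensities were 28.0, 33.1 and 25.6 after cisplatin, against 32.7, 27.9 and 31.4 in controls, so the groups interleaved. The log2 fold was -0.06 (SE 0.17, 95% interval -0.45 to 0.32, adjusted p = 0.999 in limma). As a fold the interval covers 0.731 to 1.25.

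CASP2, an initiator caspase activated in the PIDDosome complex, had intensities of 52.8, 73.6 and 55.7 after cisplatin, against 57.6, 58.1 and 37.9 in controls. The groups overlapped, with cisplatin 2 highest and control 3 lowest. The log2 fold was 0.21 (SE 0.19, 95% interval -0.22 to 0.64, adjusted p = 0.999 in limma), and it was 0.047 without control 3 and 0.086 without cisplatin 2. CASP4, which senses bacterial lipopolysaccharide inside the cell, had 33.7, 57.3 and 39.1 after cisplatin, against 44.9, 31.3 and 22.2 in controls. Here too cisplatin 2 was highest, control 3 lowest and the groups overlapped, with a log2 fold of 0.32 (SE 0.24, 95% interval -0.22 to 0.85, adjusted p = 0.999 in limma). It was 0.14 without control 3 or without cisplatin 2 and 0.50 without control 1.

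CASP1, which matures interleukin-1 beta, had intensities of 6.28, 10.2 and 2.13 after cisplatin, against 5.75, 5.99 and 1.22 in controls. All 6 values lay below the offset of 11.8 added before taking logarithms, so no fold is given, and its mean was under the brightness needed for testing. CASP1 and CASP4 lie close together on chromosome 11, and CASP5 is the 1 protein-coding gene that starts between them in the RefSeq annotation. CASP5, a further inflammatory caspase related in sequence to CASP4, had intensities of 267, 325 and 259 after cisplatin, against 271, 192 and 217 in controls. Its log2 fold was 0.32 (SE 0.16, adjusted p = 0.990 in limma), with overlapping groups and the highest value again on cisplatin 2.

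**Figure D3:**
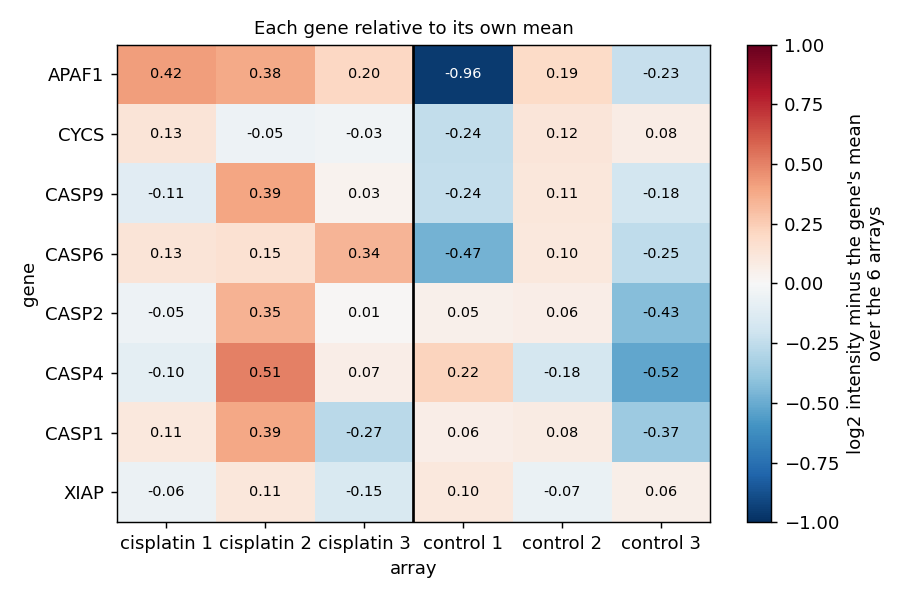
Log2 intensity of each gene minus its own mean over the 6 arrays (colour and printed value), with genes in rows and cisplatin 1 to 3 left of control 1 to 3. Control 1 is lowest for APAF1 (-0.96), CASP6 (-0.47), CASP9 (-0.24) and CYCS (-0.24), and cisplatin 2 is highest for CASP4 (0.51), CASP9 (0.39), CASP1 (0.39), CASP2 (0.35) and XIAP (0.11).

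Single arrays stood out in several members. Cisplatin 2 was the highest of the 6 arrays for 4 of the 7 tested genes and for 29.1% of all tested probe sets. Control 1 was the lowest for 4 of the 7, the apoptosome genes APAF1, CYCS and CASP9 together with CASP6, and for 29.4% of all tested probe sets. These were the arrays that lay apart on the first principal component, at -17.0 for cisplatin 2 and -14.4 for control 1 with the others between 1.69 and 12.4. Cisplatin 2 also had the highest median log2 intensity, 6.30 against 6.11 to 6.16 on the others. Both arrays had the lowest 3′/5′ ratios of the ACTB controls, a measure of RNA integrity. These were 2.20 on control 1 and 2.67 on cisplatin 2, against 2.94 to 3.67 on the others. The GAPDH controls gave 1.84 on control 1 and 2.07 on cisplatin 2, against 2.13 to 2.36 on the others. The part of array quality in the differences was not tested. Leaving out both arrays gave log2 folds of 0.33 for APAF1 and 0.31 for CASP6, with adjusted p-values of 0.746 and 0.750 in limma.

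The 10 markers chosen for this epithelial line had a median mean intensity of 2074, led by AKR1B10 at 5872, although EPCAM was low at 33.0. Markers of blood, endothelial and stromal cells, 11 with a probe set, had mean intensities of 1.41 to 98.7 with a median of 28.5, and their sum was 315 to 435 on cisplatin arrays and 334 to 423 on control arrays. On the same arrays CDKN1A, a known target of p53, rose by 2.42 on the log2 scale (adjusted p = 4.74e-06 in limma) and the death receptor gene FAS by 1.98 (0.000285).

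**Figure D4:**
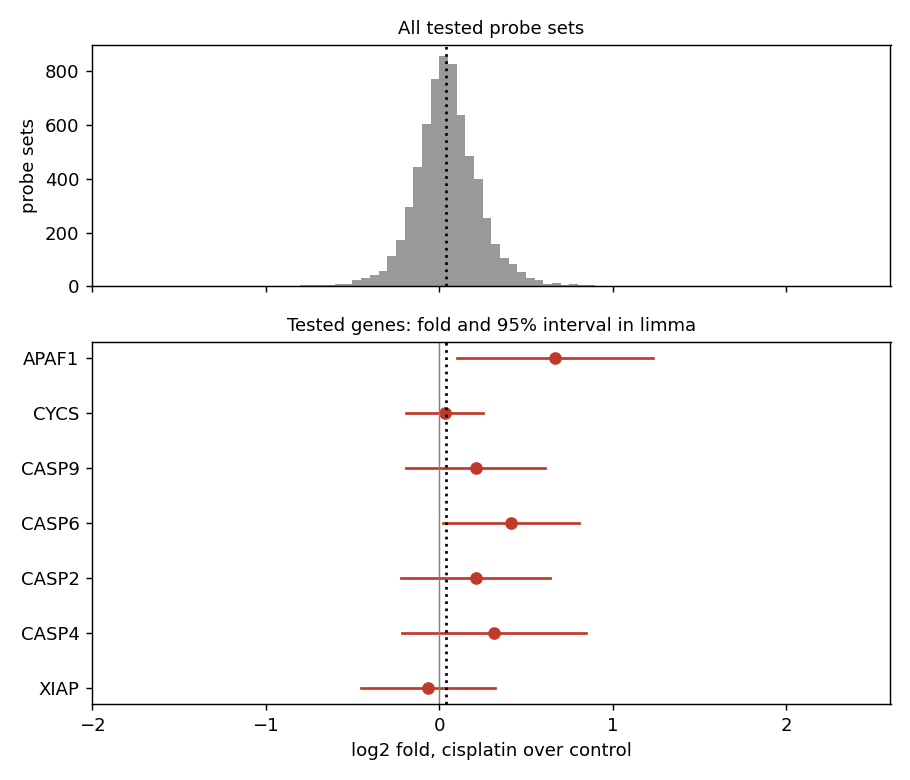
Log2 fold of cisplatin over control: the upper panel counts all 6559 tested probe sets in bins of that fold, and the lower panel gives the 7 tested genes with 95% intervals in limma. The dotted line is the median of all tested probe sets, 0.04; only the intervals of APAF1 (0.10 to 1.23) and CASP6 (0.02 to 0.81) leave out 0.

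The genes around the apoptosome were taken from 6 lists, with 59 tested genes in all. None of these passed the limma threshold in either direction, while 5 of the 59 had an unadjusted p under 0.05 in either direction, as did 330 of the 6559 tested probe sets (5.03%), and the median log2 fold over the 59 was 0.06. The largest differences lay among the regulators of APAF1 and of cytochrome c release, where 0 of 17 tested genes passed. Of these, 13 had a log2 fold above 0 (median 0.10), as did 60.5% of all tested probe sets. BAX, which permeabilises the outer mitochondrial membrane, had intensities of 72.9, 101 and 105 after cisplatin, against 38.6, 45.4 and 24.0 in controls, with no overlap (adjusted p = 0.0816 in limma). PMAIP1, which encodes the BH3-only protein NOXA, had 164, 145 and 138 after cisplatin, against 68.3, 105 and 91.6 in controls, also with no overlap (log2 fold 0.70, adjusted p = 0.282 in limma). BCL2L1, of the same list, had 183, 189 and 199 after cisplatin, against 157, 154 and 150 in controls, again with no overlap. Its log2 fold was 0.28 (adjusted p = 0.908 in limma), and it was named after its values were seen.

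In the list of other caspases and caspase substrates, 0 of 12 tested genes passed and the median log2 fold was 0.08. PAK2, a kinase that caspases activate by cleavage, had the lowest unadjusted p, with a mean of 65.2 ± 10.4 after cisplatin and 87.9 ± 17.1 in controls (SD, n = 3 each; log2 fold -0.37, adjusted p = 0.982 in limma). Among the inhibitor of apoptosis proteins and their antagonists, 0 of 9 passed, 2 of 9 log2 folds were above 0 and the median was -0.05. BIRC5, the survivin gene, had a log2 fold of -0.25, and ENDOG, a mitochondrial nuclease, one of -0.16. All 6 tested inflammasome genes had log2 folds above 0, as did 60.5% of all tested probe sets. Their median was 0.30, and 0 passed. Cisplatin 2 was the highest of the 6 arrays for most of these genes, MEFV and IL18 among them. Of these MEFV, the pyrin gene, had 0.38 (adjusted p = 0.868 in limma) and IL18, a cytokine that CASP1 matures, 0.33 (adjusted p = 0.890).

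Of the CASP2 partners, 0 of 4 passed, with log2 folds of -0.28 for the checkpoint kinase gene CHEK1 and -0.20 for CRADD, the adaptor that links CASP2 to PIDD1. PIDD1 itself had 46.6, 73.2 and 46.7 after cisplatin, against 57.6, 34.5 and 42.3 in controls, an overlap in which cisplatin 2 was again highest; it was named after its values were seen. Of 11 tested genes for cytochrome c maturation and its electron transfer partners, 0 passed and the median log2 fold was 0.05. UQCRQ and UQCRB, subunits of respiratory complex III, had log2 folds of 0.11 and 0.18.

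**Figure D5:**
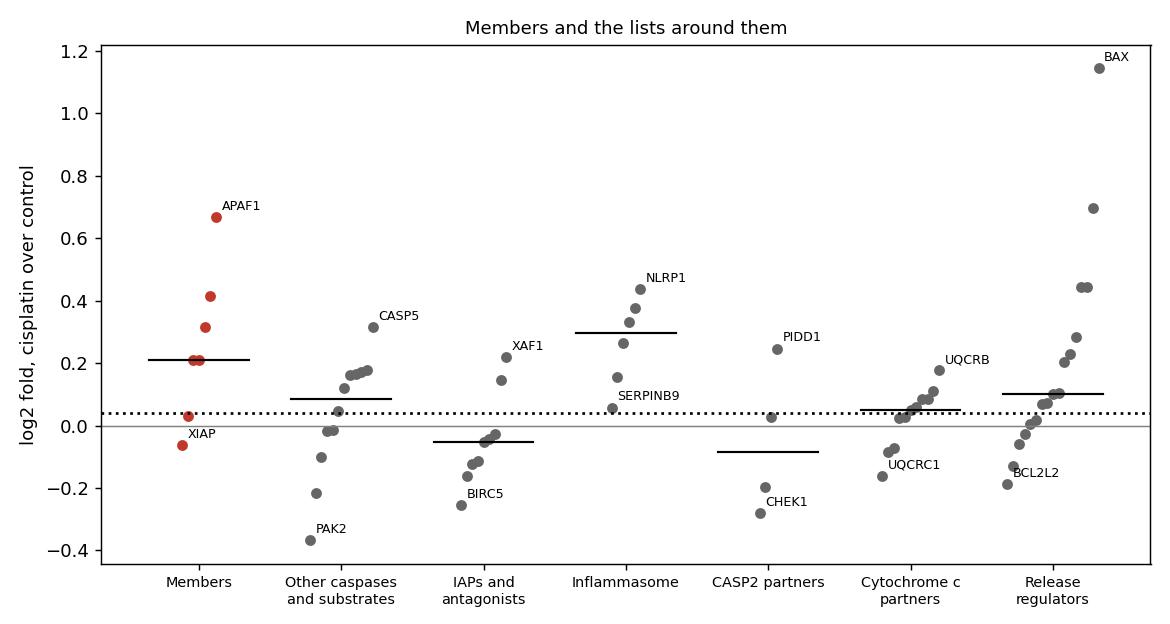
Log2 fold of cisplatin over control (y axis) for the 7 tested members in red and for each tested gene of the 6 lists in grey, with the list median as a bar and the median of all tested probe sets, 0.04, as a dotted line. BAX stands highest and PAK2 lowest, and the inflammasome median of 0.30 and the member median of 0.21 lie above the dotted line.

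APAF1 had the lowest unadjusted p of the members, and its profile was set against those of 5809 other named genes by the root mean square difference between log2 values centred on each gene's mean over the 6 arrays. The nearest were TGM1, a transglutaminase gene of epithelia, at 0.16, NOD1, an intracellular sensor of bacterial peptidoglycan, at 0.18, and PMAIP1 at 0.18. NOD1 had 70.9, 67.2 and 78.3 after cisplatin, against 29.3, 55.0 and 46.4 in controls, with control 1 lowest as for APAF1 (log2 fold 0.63, adjusted p = 0.627 in limma). This likeness follows from the choice of NOD1 by its profile. Of the other members, CASP6 came nearest, at 0.26, the rank of 40 among 5815 genes, and XIAP and CASP4 lay farthest, at 0.53 and 0.56. Like APAF1, CASP6 had control 1 lowest and no overlap between groups, so its rank is not a separate result.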

How the data were processed

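The authors deposited linear probe set intensities. Of 52758 values, 723 were at or below 0, so a background had been subtracted. Which software the authors used, and whether they scaled the arrays, is not given in the sources used here. Per the labels' protocols, biotin-labelled target was made from oligo-dT primed total RNA. Values at or below 0 were set to 0, an offset of 11.8 (the 10th percentile of positive values) was added, and log2 was taken. Arrays were used as deposited, since their 75th percentiles spanned 0.15 on that scale. The 47 control probe sets were left out, and probe sets whose mean log2 reached the 25th percentile were tested in limma 3.58.1 under R 4.3.3 (lmFit, eBayes with an intensity trend, two-sided, Benjamini-Hochberg over all tested probe sets at 0.05). The fit was checked on simulated data with independent noise for each probe set and array. That check does not cover differences shared across a whole array. Figures were drawn with matplotlib 3.10.9. The offset shrinks the fold changes of dim probe sets. Where a gene of a list had several probe sets, the brightest was used.

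Samples were grouped by their titles. Nothing in the labels says that equal replicate numbers share an experiment, and precision is limited by the number of arrays. The members, the 6 lists and the cell type markers were chosen with earlier results of these data known. All members are named, with every list gene that passed or, where none did, the 2 with the lowest unadjusted p, CDKN1A and FAS, and the 3 genes most like the leading member. Alternatives covered scaling, offset, filter, variance prior, minimum fold, replicate block and leaving out arrays. The p-values measure the spread between these samples.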

Additional observations from a re-analysis of the deposited data

How the results depend on the processing

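Under all 20 alternatives 0 member genes passed the limma threshold, as in the reported fit; each member has 1 probe set, so averaging probe sets changes none of their values. The median log2 fold over the tested members lay between 0.086 and 0.33, and between 0.086 and 0.32 with each array left out. APAF1, CASP6, CASP2, CASP4 and XIAP kept their direction under every alternative that tested them. CYCS turned negative in 7 of 19: -0.041 with arrays centred on the median, -0.016 with arrays scaled to one 75th percentile, -0.0035 with quantile normalization, -0.025 without cisplatin 1, -0.084 without control 1, -0.052 without control 1 and cisplatin 2, and -0.089 with the 3′/5′ ratio as a covariate, within -0.084 to 0.099 when single arrays were left out. CASP9 had -0.0043 without control 1 and cisplatin 2. The cause was not tested. The last 2 settings, chosen after the data were seen, gave APAF1 0.33 and 0.42 on the log2 scale. APAF1 had an unadjusted p under 0.05 in limma in 14 of 19 alternatives, CASP6 in 9 of 19 and CASP4 in 1 of 18. These are refits of the same arrays and not independent tests. For APAF1 the unadjusted p in limma was 0.0572 without cisplatin 1, 0.0673 without cisplatin 2 and 0.0591 without control 1. For CASP6 it was 0.0810 with arrays centred on the median and 0.0750 with quantile normalization. With single arrays left out, CASP6 was under 0.05 only without control 2 (0.0113). With the 3′/5′ covariate CASP4 had 0.56 (unadjusted p = 0.0183, adjusted p = 0.289 in limma, the lowest of any member), where the unadjusted p was 0.0542 for APAF1 and 0.0854 for CASP6.

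Against 19 of all tested probe sets, 4 passed with a minimum fold of 1.5, 8 with eBayes run without its trend, 11 after centring each array on its median, 6 to 18 with each array left out and 47 with the 3′/5′ covariate. With the replicate block 5 passed and 0 members did. The deviations of equally numbered arrays from their group means correlated at -0.56, -0.31 and -0.12. Cisplatin 2 and control 1, which differ in number, lay apart from the other arrays and weigh on these correlations. They therefore cannot decide whether equally numbered arrays share an experiment. Signal over background limits CASP1, which was tested only without the filter, and XIAP, CASP2 and CASP4, which fell below a filter at the 50th percentile.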
